A study of Homo sapiens with 6 samples.

Results

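The genes described here are the integrins, the cell surface adhesion receptors and the cytoplasmic complex of integrin-linked kinase (ILK) in the human cell line FUJIOKA, which derives from acute myeloid leukaemia, with and without knockdown of SPINK2, a serine protease inhibitor gene. The list holds 45 of the 63236 genes in the deposited table, matched by gene symbol. It was drawn up by gene family and known function when the fold changes of this experiment were already known, so the genes were in part chosen by the same measured difference between shSPINK2 and shNEG that is given below, which therefore stands as a description and is no independent evidence about the list. RNA was sequenced from 3 libraries with a scrambled control shRNA (shNEG) and 3 with a shRNA against SPINK2 (shSPINK2), in cells that all carried the doxycycline-inducible Tet-pLKO-puro lentiviral vector. The methods name 1 SPINK2 shRNA and the labels 2, without saying which library carried which, and neither gives the time on doxycycline before RNA was taken or says whether the libraries came from separate cultures. P-values thus measure only the spread between these libraries, which may be technical.

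Integrins are heterodimers of an α and a β chain that bind extracellular matrix or receptors on other cells. Those with the β2 chain are found on leukocytes and bind the intercellular adhesion molecules (ICAMs), which belong to the immunoglobulin superfamily. Binding of talin and kindlin to the β chain tail switches an integrin on, and ILK, held together with the LIM protein PINCH and a parvin, ties the bound integrin to actin. RSU1 (Ras suppressor 1) is a leucine-rich repeat protein that binds PINCH1, the product of LIMS1.

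The labels name these target sequences for the SPINK2 shRNAs, shown because they define the perturbation:
shRNA1: tcagggaaggtggtcataata
shRNA2: cgccaaactgctctcagtata
In the canonical SPINK2 transcript of GENCODE (722 bases) the first lies at bases 395 to 415 and the second at bases 287 to 307. Neither occurs whole in the canonical transcript of any of the 45 genes. The longest run shared with RSU1, the gene of the list that fell most, was 7 bases for shRNA1 and 8 bases for shRNA2, and the longest over all 45 was 11 bases for each, in TLN1 and ITGB3.

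The deposited table holds 1 mean per gene over all 6 libraries. The whole reads of each library behind that mean were recovered for 24080 of 25885 genes searched, and for 16041 (99.4%) of the 16131 whose mean was 10 or more. The recovered reads summed to between 31830719 and 32584097 per library and held 83.5% of the summed deposited mean. Libraries of a group are named a, b and c here in falling order of their size factors and carry no replicate number. SPINK2 had 56, 63 and 53 reads in shNEG and 7, 9 and 6 in shSPINK2, a log2 fold change of -2.83 (SE 0.26). Libraries of 1 group differed by more than sampling noise, with a chi-square per degree of freedom of 1.83 to 2.39 between pairs of shNEG libraries and 3.48 to 5.50 between pairs of shSPINK2 libraries, which does not show whether they came from separate cultures. Library b of shSPINK2 stood apart from a and c, with 5.50 and 5.43 against 3.48 between a and c. Without it 16 of the genes described here were higher and 6 lower, and the log2 fold changes of RSU1, ICAM1, PECAM1 and ITGA9 were -1.94, 1.69, 1.65 and 1.46. Of 8 myeloid leukaemia marker genes 7 reached the mean of 10, and KIT had under 1 read. Of the 7, 3 were higher, 2 were lower and CEBPA and SPI1 were not called, with log2 fold changes from -0.83 to 0.82, while their sum ran from 58414 to 62216 normalized reads in shNEG and from 65204 to 69121 in shSPINK2. The defining markers of T, B, erythroid, megakaryocytic, endothelial, epithelial and stromal cells (CD3E, MS4A1, PAX5, HBB, PF4, GP9, CDH5, KDR, EPCAM, CDH1 and COL1A2) were each under 1 read on average. Among the other genes of those lists, reads were found for COL1A1 (means of 180 normalized reads in shNEG and 118 in shSPINK2, lower and called), KRT8 (104 and 88.6) and GP1BA (113 and 127), and CD3D, TEK and VWF had under 10. The part of such transcripts in the results below was not tested. In RNA of whole cultures, fewer cells that express a gene and less of its RNA per cell cannot be told apart.

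All but 1 of the 45 genes had reads, the exception being ICAM4, and the reads of all 44 were recovered. The 40 with a mean of at least 10 normalized reads entered the fit across all 16041 such genes (limma on log2 of normalized reads plus 1, Benjamini-Hochberg adjustment over all genes), and ITGAD, ITGB5, ITGB8, VCAM1 and ICAM4 did not. A gene was called at an adjusted p under 0.05, and called with a fold change threshold where its log2 fold change was also over 1 in size. At the first rule 17 of the 40 were higher in shSPINK2, where 28.7% of all genes fitted were higher, and 8 were lower, where 29.9% of all genes were lower. With the threshold 3 were higher (ICAM1, PECAM1 and ITGA9), beside 1.72% of all genes, and 1 was lower (RSU1), beside 2.88%. The libraries of the groups did not overlap in 27 of the 40 genes, and in 62.5% of all genes fitted. The median log2 fold change was 0.08 over the 40 and 0.00082 over all genes, and the median size of the change was 0.25 and 0.27. Because the genes were chosen with this contrast known, these counts describe the list and nothing is read from them. The same holds for the counts within each group below, which stand beside the same shares of all genes. Nearest to the threshold of 1 lay ITGB3 at -0.93 and F11R at 0.93, both outside it, and of the 4 genes past it the nearest was ITGA9 at 1.47.

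**Figure D1:**
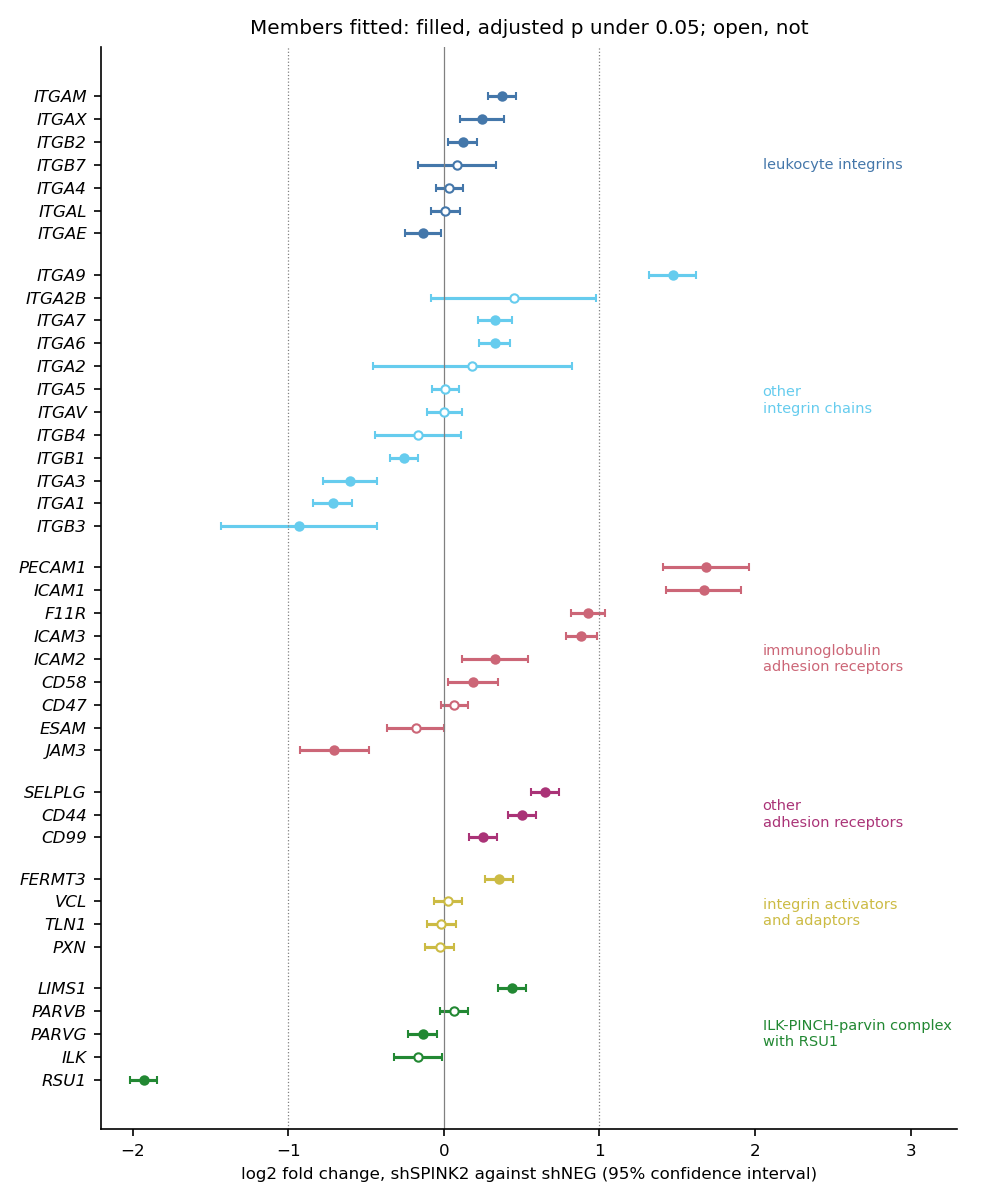
Log2 fold change of shSPINK2 against shNEG (x axis) with its 95% confidence interval for the 40 fitted genes, grouped by role and coloured by group. Filled points are called at an adjusted p under 0.05, open points are not, and dotted lines mark 1 and -1. RSU1 at -1.93 stands alone on the left and PECAM1, ICAM1 and ITGA9 are the points to the right of 1.

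Of the complex around ILK, RSU1 fell, LIMS1 rose, PARVG fell slightly, and ILK and PARVB were not called. RSU1 (ENSG00000148484.17), on the minus strand of chr10:16590611-16817463 (GRCh38), had 7919, 7424 and 7813 reads in shNEG and 2116, 2065 and 1951 in shSPINK2. The 3 shSPINK2 libraries lay close together and far below every shNEG library. The log2 fold change was -1.93 (SE 0.04, 95% confidence interval from -2.02 to -1.84), so RSU1 fell by 73.7%, and by size of fold change it ranked 21 among all fitted genes that were lower. None of its exon bases are shared with another annotated gene, and no 100-base word of its canonical transcript occurs in another gene.

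LIMS1 (ENSG00000169756.16), which encodes PINCH1, the binding partner of RSU1, moved the other way. In shNEG it had 6874, 6883 and 6974 reads, and in shSPINK2 it had 9153, 9950 and 9203. The shNEG libraries were almost equal and all 3 shSPINK2 libraries were higher, with a log2 fold change of 0.44 (SE 0.04). Of the 100-base words of its transcript 12.2% occur in other genes, among them LIMS3 and LIMS4, which are both listed with a mean of 0. LIMS2, which encodes PINCH2, had under 1 read on average.

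ILK itself had 575, 496 and 485 reads in shNEG and 524, 439 and 437 in shSPINK2. Its groups overlapped, and the log2 fold change of -0.17 (SE 0.08) was not called. It was called without shNEG library c (-0.21) and without shSPINK2 library a (-0.23). Of its exon bases 78.5% lie opposite exons of other genes, TAF10 among them, and since the sources used here do not say whether the counting used strand, reads of ILK and of these genes may not have been told apart.

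PARVB and PARVG encode β-parvin and γ-parvin, the actin-binding arm of the complex, and are neighbours on chromosome 22 with 16 bases between their annotated ends. PARVB had 3054, 2902 and 2996 reads in shNEG and 3170, 3101 and 3169 in shSPINK2, and PARVG had 7057, 6585 and 6783 against 6494, 5890 and 6377. PARVG fell by 0.14 on the log2 scale (SE 0.05), whereas PARVB, with a log2 fold change of 0.06 (SE 0.04), was not called although its libraries did not overlap. The call of PARVG was lost without shNEG library a (-0.11) and without shSPINK2 library b (-0.09). Of the PARVG exon bases 38.5% lie opposite exons of other genes. The α-parvin gene PARVA is listed at 0, so all parvin reads came from PARVB and PARVG.

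**Figure D2:**
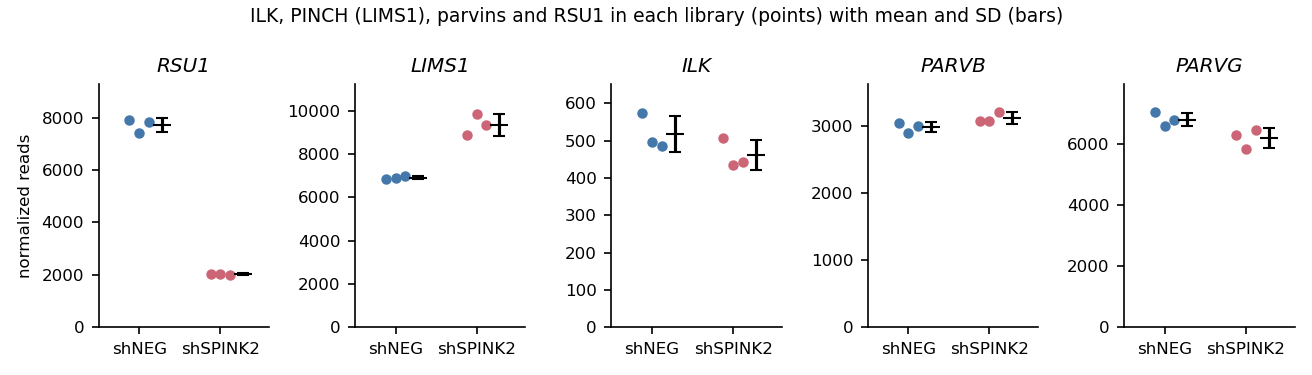
Normalized reads (y axis, starting at 0) of RSU1, LIMS1, ILK, PARVB and PARVG in the 3 shNEG and 3 shSPINK2 libraries, 1 point per library, with mean and SD as bars. RSU1 drops from 7713 to 2025 normalized reads, LIMS1 rises from 6905 to 9352, and the other three stay near their shNEG level.

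Per kilobase of exon, with the exons of all annotated transcripts of a gene merged, RSU1 was the most abundant of these 5 in shNEG and the third in shSPINK2. It had 1869 ± 62.2 normalized reads per kilobase in shNEG (SD, n = 3) and 491 ± 9.38 in shSPINK2, and LIMS1 had 761 ± 7.46 and 1031 ± 55.0. The ratio of RSU1 to LIMS1 per kilobase was 2.53, 2.37 and 2.46 under shNEG but 0.51, 0.46 and 0.47 under shSPINK2. By this measure RSU1 transcripts were thus more abundant than those of its partner in every shNEG library and less abundant in every shSPINK2 library. Of the summed reads per kilobase of the 5 genes, RSU1 made up 47.0% ± 0.384 in shNEG and 17.6% ± 0.500 in shSPINK2, while LIMS1 went from 19.2% ± 0.540 to 36.9% ± 1.77. The ratio of PARVG to PARVB was 1.95 ± 0.0219 and 1.70 ± 0.0665. Among all 45 genes, RSU1 ranked 3 by reads per kilobase in shNEG, behind ITGB2 and TLN1, and 16 in shSPINK2.

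The promoter of RSU1, the 250 bases before its RefSeq start (GRCh38.p14, chr10:16817425-16817674, minus strand), is shown because no other gene of the list fell as far. None of the words searched, which are described with the promoters below, occur in it:
RSU1: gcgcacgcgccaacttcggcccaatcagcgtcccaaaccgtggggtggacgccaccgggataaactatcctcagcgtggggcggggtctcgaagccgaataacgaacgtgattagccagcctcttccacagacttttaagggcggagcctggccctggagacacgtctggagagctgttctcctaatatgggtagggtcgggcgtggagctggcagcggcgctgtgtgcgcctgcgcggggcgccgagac
It holds 64.0% G and C bases and 25 CpG dinucleotides, beside a median of 58.0% G and C over 27305 promoters of this length.

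The leukocyte integrins moved little. Of 8 genes 7 were fitted, 3 were higher (ITGAM, ITGAX and ITGB2), 1 was lower (ITGAE) and 3 were not called (ITGAL, ITGA4 and ITGB7), with log2 fold changes from -0.13 to 0.38. ITGAM (ENSG00000169896.16) encodes αM or CD11b, the α chain of the complement receptor Mac-1 of monocytes and granulocytes. It had 3714, 3881 and 3717 reads in shNEG and 4938, 4845 and 5027 in shSPINK2, a log2 fold change of 0.38 (SE 0.04). Every shSPINK2 library was above every shNEG library, by more than the spread of either group. ITGAX, which encodes αX or CD11c, had 455, 457 and 480 reads in shNEG and 614, 527 and 529 in shSPINK2, a log2 fold change of 0.25 (SE 0.07).

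ITGAL encodes αL or CD11a, the α chain of LFA-1, and was not called. In shNEG it had 2200, 2037 and 2103 reads, and in shSPINK2 it had 2185, 2173 and 2083, for a log2 fold change of 0.01 (95% confidence interval from -0.08 to 0.11). The groups overlapped throughout. ITGAD, for αD, had 8, 5 and 5 reads in shNEG and 17, 6 and 9 in shSPINK2 and was too low to be fitted. ITGB2, the common β2 chain, had 26856, 25390 and 25372 reads in shNEG and 28215, 27701 and 29250 in shSPINK2. Its log2 fold change was 0.12 (SE 0.05), and the call was lost when shNEG library b or c or shSPINK2 library c was left out, with values between 0.08 and 0.11.

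Among the 4 α partners of β2, ITGAM gave most of the reads per kilobase in every library. Its share was 69.3%, 71.5% and 69.8% in shNEG and 73.6%, 74.2% and 75.4% in shSPINK2. The share of ITGAL was 22.7% ± 1.02 in shNEG and 18.7% ± 0.592 in shSPINK2 (SD, n = 3), that of ITGAX was 6.95% ± 0.264 and 6.74% ± 0.533, and ITGAD stayed under 0.33% in every library. The sum of the 4 was 943 ± 9.25 normalized reads per kilobase in shNEG and 1156 ± 28.6 in shSPINK2. ITGB2 alone had 3541 ± 110 and 3855 ± 183 per kilobase, more than its 4 partners together. By merged exon length it was the most abundant of the 45 genes in both groups. ITGAM, ITGAX and ITGAD follow each other on chromosome 16 with gaps of 22.2 kb and 10.3 kb, and ITGAL lies 736 kb before them.

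Of the α4 and β7 integrins of leukocyte homing and their relative αE, which binds E-cadherin, none changed by much. ITGA4, the α4 chain, had 13103, 13102 and 12784 reads in shNEG and 13520, 13728 and 13053 in shSPINK2, for a log2 fold change of 0.04 (95% confidence interval from -0.05 to 0.12). ITGB7 had 121, 123 and 110 reads in shNEG and 132, 108 and 140 in shSPINK2, and 42.3% of its exon bases lie opposite ZNF740. ITGAE had 904, 974 and 1006 reads in shNEG and 914, 848 and 889 in shSPINK2. Both genes had overlapping groups, and the call of ITGAE at -0.13 (SE 0.06) did not hold in 8 of the alternatives tried, among them those without shNEG library b or c or shSPINK2 library a or b (from -0.14 to -0.10).

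The promoter of ITGAM (chr16:31259725-31259974, plus strand) is shown as that of the β2 partner that rose, with the core word of sites for PU.1, a myeloid transcription factor, in capitals at 127 bases before the start:
ITGAM: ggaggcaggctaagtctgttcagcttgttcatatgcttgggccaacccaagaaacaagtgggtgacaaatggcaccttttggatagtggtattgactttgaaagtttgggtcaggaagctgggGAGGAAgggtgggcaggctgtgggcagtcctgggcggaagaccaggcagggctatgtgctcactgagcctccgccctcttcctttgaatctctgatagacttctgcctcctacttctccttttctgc
This word, GAGGAA on either strand, was found in the same window of 10 of the 30 genes of the list that the RefSeq promoter table holds, and in 23.4% of all 27305 promoters. The others were CD58, FERMT3, ICAM4, ITGAE, ITGAV, ITGB1, ITGB7, LIMS1 and VCAM1, which include genes that rose, fell and were not called. The match is a description of the letters and was not tested as a site.

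The other integrin chains moved in both directions. Of 14 genes 12 were fitted, 3 were higher, 4 were lower and 5 were not called. ITGA9 (ENSG00000144668.11), on chr3:37452115-37823507, encodes α9, which pairs with β1 and binds tenascin and VCAM-1. It had 247, 243 and 217 reads in shNEG and 669, 675 and 636 in shSPINK2. All shSPINK2 libraries were far above the shNEG libraries, and the log2 fold change of 1.47 (SE 0.07, 95% confidence interval from 1.32 to 1.62) ranked 63 among the fitted genes that were higher. ITGA7 and ITGA6, which encode laminin-binding α chains, rose by 0.33 each on the log2 scale. ITGA7 had 1227, 1132 and 1093 reads in shNEG and 1528, 1433 and 1414 in shSPINK2, and ITGA6 ran from 1464 to 1550 and from 1830 to 2003.

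The chains that fell were ITGB3, ITGA1, ITGA3 and ITGB1. ITGA1, for the collagen-binding α1, had 893, 835 and 882 reads in shNEG and 522, 546 and 535 in shSPINK2, a log2 fold change of -0.71 (SE 0.06). Of the ITGA1 exon bases 13.2% are shared with other genes on either strand, among them PELO on the same strand. ITGA3, for the laminin-binding α3, had 402, 370 and 356 reads in shNEG and 231, 251 and 268 in shSPINK2, a log2 fold change of -0.60 (SE 0.09). In both genes no shSPINK2 library reached the lowest shNEG library. ITGB3, for the β3 chain of the platelet fibrinogen receptor, had 30, 41 and 29 reads in shNEG and 15, 17 and 19 in shSPINK2, and its log2 fold change of -0.93 (SE 0.25) passed 1 in size when shNEG library c or shSPINK2 library c was left out (-1.02 and -1.03). Of its exon bases 33.2% are shared with an overlapping gene on the same strand. ITGA2B, its α partner in platelets, had 23, 15 and 23 reads in shNEG and 24, 39 and 23 in shSPINK2 and was not called (0.45, SE 0.26). The platelet genes PF4 and GP9 are listed at 0, and the summed megakaryocyte markers, all of them reads of GP1BA, ran from 93.1 to 124.9 in shNEG and from 121 to 136 in shSPINK2.

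ITGB1, the β1 chain that most of these α chains share, had between 9170 and 9643 reads in shNEG and between 7590 and 8346 in shSPINK2, a log2 fold change of -0.26 (SE 0.05). ITGA5 at 0.01 and ITGAV at 0.0030 were not called, nor were ITGA2 (10 to 17 reads in shNEG and 12 to 19 in shSPINK2) and ITGB4 (88 to 94 and 77 to 88). ITGB5 and ITGB8 had at most 9 and 2 reads in any library. ITGB1 thus fell while ITGA5 and ITGA4, its most abundant partners, were not called. The ratio of ITGA5 to ITGB1 per kilobase was 2.12 ± 0.00868 in shNEG and 2.56 ± 0.179 in shSPINK2 (SD, n = 3). That of ITGA4 to ITGB1 was 1.90 ± 0.0403 and 2.33 ± 0.0969. Merged exons measure 14561 bases for ITGB1, 7383 for ITGA5 and 10654 for ITGA4. Their canonical transcripts hold 3636, 4151 and 6682 words of the length used for LIMS1 above. Whether either α chain was more abundant than ITGB1 thus depends on the length used, whereas the rise of both ratios does not. Among 9 α chains that can pair with β1, ITGA5 and ITGA4 had 43.9% and 39.3% of the reads per kilobase in shNEG and 42.2% and 38.4% in shSPINK2. The share of ITGA9 was 0.918% ± 0.0470 in shNEG and 2.43% ± 0.0424 in shSPINK2, so that its large change was that of a minor chain.

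**Figure D3:**
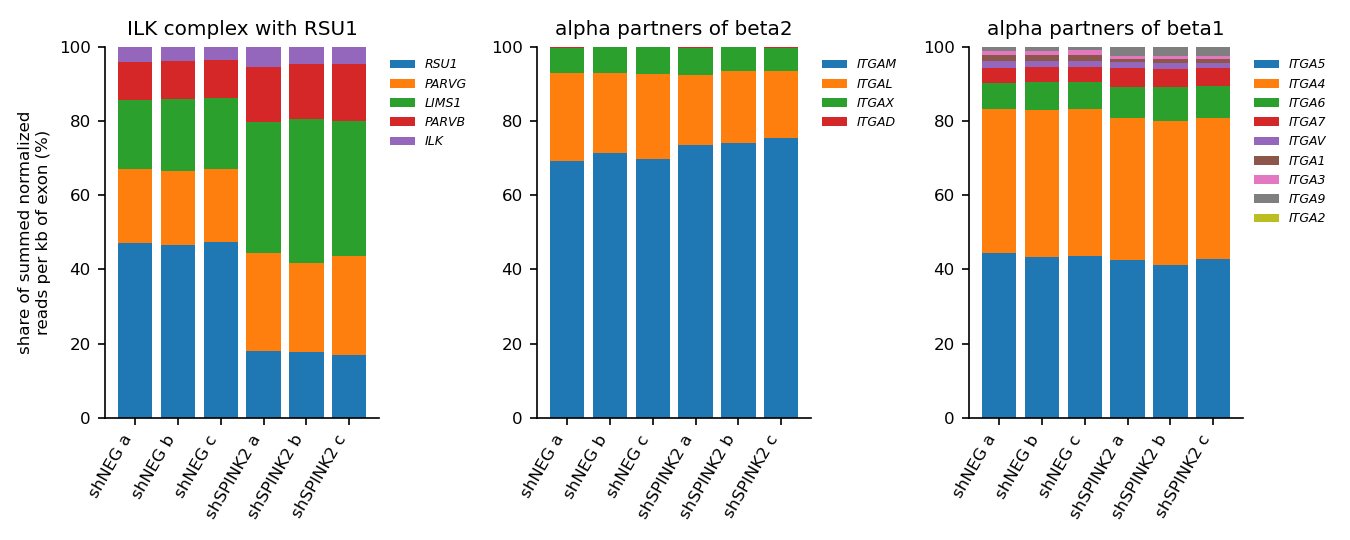
Share of summed normalized reads per kilobase of exon (y axis, 0 to 100%) in each of the 6 libraries (x axis) for the 5 genes of the ILK complex with RSU1, the 4 α partners of β2 and 9 α partners of β1, 1 colour per gene. RSU1 shrinks from 47.0% to 17.6% on average, ITGAM grows from 70.2% to 74.4%, and the makeup of the β1 partners shifts least.

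The immunoglobulin adhesion receptors held the largest rises of the list. Of 11 genes 9 were fitted, 6 were higher (PECAM1, ICAM1, F11R, ICAM3, ICAM2 and CD58), 1 was lower (JAM3) and 2 were not called (CD47 and ESAM). ICAM1 (ENSG00000090339.8), on chr19:10271093-10286615, encodes the cytokine-inducible ligand of the β2 integrins LFA-1 and Mac-1. It had 101, 69 and 83 reads in shNEG and 267, 262 and 280 in shSPINK2. The shNEG libraries were more spread out (coefficient of variation 18.9%) than the shSPINK2 libraries (5.44%), and the gap between the groups was wider than either spread. Its log2 fold change was 1.67 (SE 0.12, 95% confidence interval from 1.43 to 1.91). Of its exon bases 25.4% lie opposite 2 annotated antisense RNAs.

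PECAM1 (ENSG00000261371.5), on the minus strand of chr17:64319415-64413776, encodes CD31, a homophilic receptor of endothelium, platelets and myeloid cells. It had 46, 48 and 45 reads in shNEG and 158, 161 and 140 in shSPINK2, a log2 fold change of 1.69 (SE 0.14, 95% confidence interval from 1.41 to 1.96). The shNEG libraries differed by 3 reads at most, and the lowest shSPINK2 library was far above them. CDH5 and KDR, defining genes of endothelium, are listed at 0, and the summed reads of 4 endothelial markers ran from 8.99 to 13.0 in shNEG and from 7.75 to 12.9 in shSPINK2.

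ICAM2 and ICAM3 are constitutive LFA-1 ligands. ICAM3 had 1433, 1348 and 1286 reads in shNEG and 2612, 2434 and 2527 in shSPINK2, a log2 fold change of 0.89 (SE 0.05). ICAM2 had 143, 135 and 149 reads in shNEG and 177, 185 and 179 in shSPINK2, a log2 fold change of 0.33 (SE 0.10). Every shSPINK2 library was higher than every shNEG library in both genes. ICAM4, which carries the erythroid Landsteiner-Wiener blood group antigen and lies 339 bases after ICAM1 on chromosome 19, had no reads, and ICAM3 follows 45.3 kb further on. All exon bases of ICAM4 (100%) lie opposite ICAM4-AS1, so reads there may have gone uncounted where strand was not used, which was not tested. Of the ICAM3 exon bases 75.4% lie opposite another annotated gene. ICAM3 made up 87.7% ± 0.947 of the ICAM reads per kilobase in shNEG and 87.1% ± 0.468 in shSPINK2 (SD, n = 3). By merged exon length, ICAM1 stood at 4.4% ± 0.668 and ICAM2 at 7.93% ± 0.625 in shNEG. In shSPINK2 they stood at 7.53% ± 0.272 and 5.36% ± 0.287. For ICAM2 that length is 3243 bases, against 1036 words of 100 bases in its canonical transcript, and for ICAM1 it is 3448 against 2868. Which of the pair was more abundant thus depends on the length used.

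The junctional receptors moved in opposite directions. F11R, which encodes JAM-A, a ligand of LFA-1, had 992, 1085 and 1032 reads in shNEG and 1941, 2119 and 1902 in shSPINK2, a log2 fold change of 0.93 (SE 0.05), and 36.6% of its exon bases are shared with an overlapping gene on its strand. JAM3, for JAM-C, a ligand of Mac-1, had 172, 181 and 182 reads in shNEG and 114, 110 and 106 in shSPINK2, a log2 fold change of -0.70 (SE 0.11), and 35.6% of its exon bases lie opposite NCAPD3. The 2 genes thus went apart with no overlap of groups in either. ESAM had 253, 252 and 260 reads in shNEG and 213, 231 and 237 in shSPINK2, a log2 fold change of -0.18 (SE 0.09), and was not called, except without shSPINK2 library c (-0.23).

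CD58, the ligand of CD2, had 327, 395 and 339 reads in shNEG and 424, 419 and 375 in shSPINK2. These groups overlapped, and its call at a log2 fold change of 0.19 (SE 0.08) did not hold in 9 of the alternatives tried, among them those without shNEG library a or c or shSPINK2 library a or b (from 0.13 to 0.17). CD47, the ligand of SIRPα and a partner of integrins, had 6477, 6334 and 6230 reads in shNEG and 6748, 7043 and 6355 in shSPINK2 and was not called (0.07, 95% confidence interval from -0.02 to 0.16). VCAM1, the ligand of α4β1, had 11, 7 and 10 reads in shNEG and 3, 4 and 5 in shSPINK2. Its mean was under 10, so it was outside the fit. When no minimum was set it was called with a log2 fold change of -1.05.

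**Figure D4:**
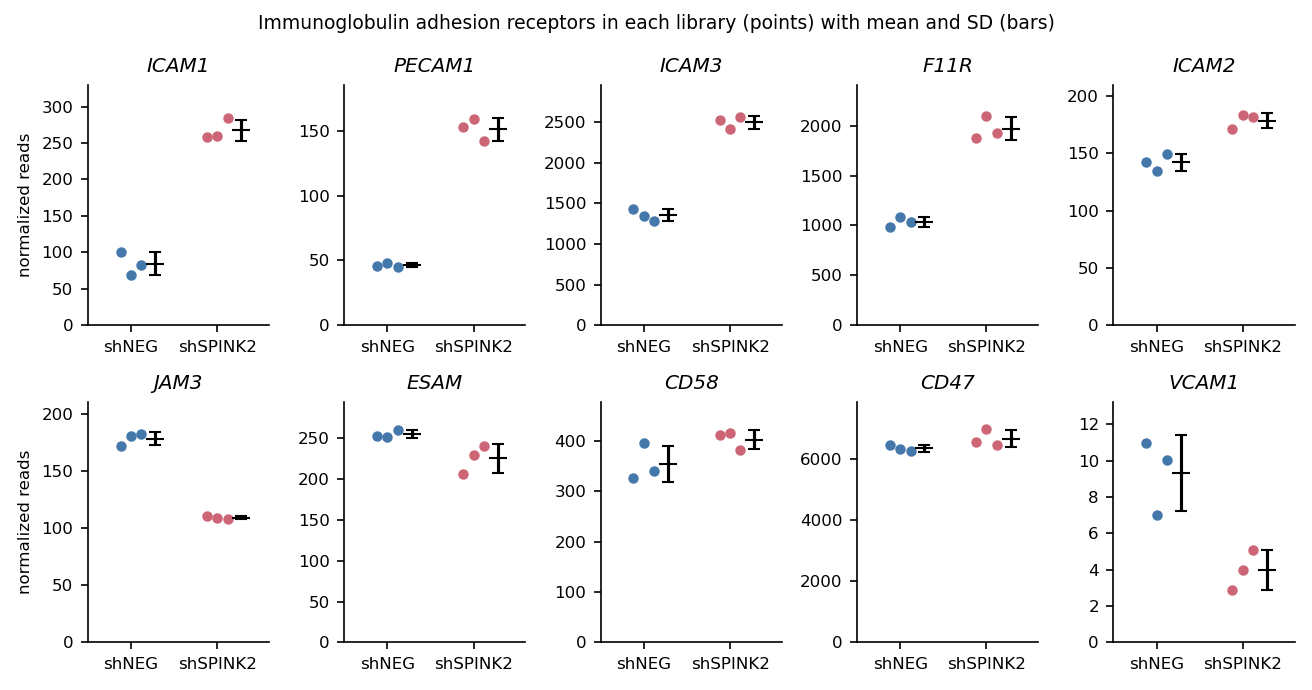
Normalized reads (y axes, each starting at 0) of 10 immunoglobulin adhesion receptors in 3 shNEG and 3 shSPINK2 libraries, 1 point per library, with mean and SD as bars. ICAM1, PECAM1, ICAM3, F11R and ICAM2 are higher in all shSPINK2 libraries, JAM3, ESAM and VCAM1 lower, and CD58 and CD47 overlap.

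The promoter of ICAM1 (chr19:10270870-10271119, plus strand) is shown because it alone among the 30 promoters held a match to either of 2 NF-κB site forms of 10 bases. Capitals mark that match at 187 bases before the start and the TATA box word TATAAA at 30 bases before it:
ICAM1: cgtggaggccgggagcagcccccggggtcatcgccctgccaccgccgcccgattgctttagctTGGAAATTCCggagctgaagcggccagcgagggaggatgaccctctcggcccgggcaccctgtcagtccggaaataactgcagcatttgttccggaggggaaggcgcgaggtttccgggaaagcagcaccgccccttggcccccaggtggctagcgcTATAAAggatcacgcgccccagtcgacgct
This NF-κB form is present in 0.10% of all 27305 promoters (27 of them) and the other form in 0.18%. TATAAA was found in 4 of the 30 (ICAM1, ITGA6, PARVG and VCAM1) and in 11.1% of all promoters. The AP-1 word TGACTCA was found in none of the 30 and in 4.16% of all. Both strands were searched and none of the words contains another. The table used here holds no entry for PECAM1, ITGAL, ITGAX, ITGB2 or ITGA9.

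The 3 other adhesion receptors all rose. SELPLG, which encodes PSGL-1, the selectin ligand of leukocytes, had 2556, 2380 and 2489 reads in shNEG and 4021, 3942 and 3783 in shSPINK2, a log2 fold change of 0.65 (SE 0.04). CD44, the hyaluronan receptor, had 10888, 10602 and 10741 reads in shNEG and 15253, 16238 and 14666 in shSPINK2, a log2 fold change of 0.50 (SE 0.04). CD99 had 8976, 9290 and 8604 reads in shNEG and 11024, 10295 and 10963 in shSPINK2, a log2 fold change of 0.25 (SE 0.04). None of these genes had overlapping groups. CD99 lies in the pseudoautosomal region, and its row for the Y chromosome copy is listed at 0. Per kilobase of merged exons CD99 and CD44 were among the 8 most abundant genes of the list in both groups, a rank that depends on the length used.

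Of the proteins that switch integrins on, the gene for kindlin-3, FERMT3, rose, and those for talin, vinculin and paxillin were not called. FERMT3 (ENSG00000149781.12), the kindlin of blood cells, had 7303, 6951 and 6810 reads in shNEG and 9121, 8758 and 9323 in shSPINK2, a log2 fold change of 0.36 (SE 0.04). The shSPINK2 libraries were all above the shNEG libraries. TLN1 had 29240, 27685 and 27958 reads in shNEG and 27732, 27741 and 29169 in shSPINK2 (-0.02, 95% confidence interval from -0.11 to 0.08), VCL had 11611, 11011 and 10904 against 11124, 11813 and 11548 (0.03, from -0.06 to 0.12), and PXN had 2895, 2823 and 2664 against 2868, 2715 and 2718 (-0.03, from -0.12 to 0.07). In each the groups overlapped, and the 95% confidence intervals leave room for changes of at most 0.12 on the log2 scale. TLN1 was second only to ITGB2 in reads per kilobase of merged exons, with 2848 ± 79.0 in shNEG and 2818 ± 145 in shSPINK2, a rank that depends on the length used.

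**Figure D5:**
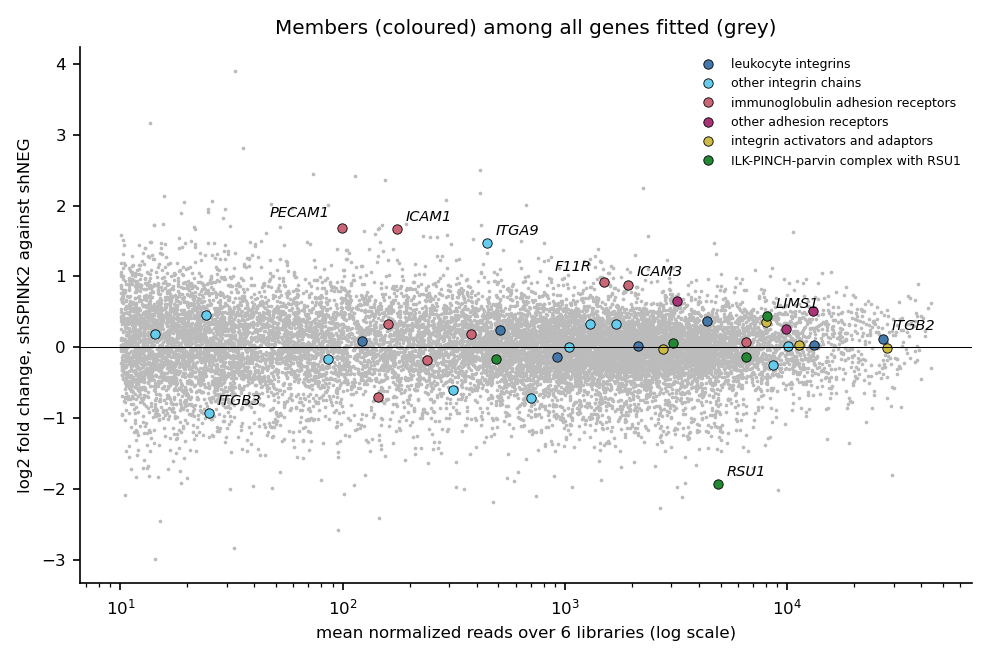
Log2 fold change of shSPINK2 against shNEG (y axis) against mean normalized reads over the 6 libraries (x axis, log scale) for the 16041 fitted genes (grey) and the 40 fitted genes of the list (coloured by group). RSU1 lies at -1.93, and PECAM1, ICAM1 and ITGA9 lie at 1.69, 1.67 and 1.47. The 19 fitted integrin chains run from -0.93 to 1.47, with a median size of change of 0.25, beside 0.27 over all genes.

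Other genes of integrin signalling were looked up from a list of 48, of which 40 were fitted. Of these 11 were higher, 17 were lower and 12 were not called, with a median log2 fold change of 0.0019. Over all genes fitted 28.7% were higher and 29.9% lower, and nothing is read from these counts. FLNA, for the integrin-binding filamin A, had a deposited mean of 96935, above the range in which reads were recovered, and is given by this mean only. Of 15 ligands and selectins 10 were fitted, with 3 higher and 3 lower, beside the same 28.7% and 29.9% of all genes. The largest changes upward were those of VTN and FGR. FGR encodes a Src family kinase of myeloid cells that acts downstream of β2 integrins. It had 743, 654 and 653 reads in shNEG and 1484, 1338 and 1350 in shSPINK2 (log2 fold change 1.01, SE 0.06). VTN, for vitronectin, had 12, 12 and 9 reads in shNEG and 36, 29 and 14 in shSPINK2 (1.09, SE 0.31).

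The largest changes downward were those of THBS1, SRC and TNS1. THBS1, for thrombospondin-1, a matrix ligand of CD47 and integrins, had 84, 79 and 103 reads in shNEG and 34, 46 and 37 in shSPINK2 (-1.18, SE 0.17). SRC had 69, 49 and 63 reads in shNEG and 26, 26 and 32 in shSPINK2 (-1.08, SE 0.20), so that SRC fell while its relative FGR rose. TNS1, for tensin 1, an adaptor between integrin tails and actin, had 525, 506 and 550 reads in shNEG and 265, 253 and 277 in shSPINK2 (-1.0, SE 0.08). In none of these 5 genes did the groups overlap.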

How the data were processed

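Libraries were made from mRNA (paired 150-base reads, MGI G400). Quality control (FastQC), alignment to GRCh38 (hg38; STAR 2.7.11), gene counts (featureCounts) and normalization (DESeq2 1.40.0) were done by the authors, the versions being those of the submitters' processing notes. The annotation release, the strandedness and the featureCounts version are not given in the sources used here. For each gene the deposited table holds 1 signal value, which is the average of the size-factor-normalized counts of the 6 libraries as the authors computed it, and the columns of the authors' own comparison (log2 fold change, standard error, Wald statistic, p-value, adjusted p-value and a status). No column holds a value per library.

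Whole reads per library were recovered from the deposited mean, which is a weighted sum of 6 whole numbers. The first weights came from genes with 1 read in 1 library. They were then refined by least squares on reads already recovered from a sample of genes, so the final weights depend in part on the recovery itself. The log2 fold change and standard error deposited by the authors served only to single out the solution, whose own estimated log2 fold change had to equal the deposited one within 1e-13, and to assign libraries to groups, so the recovered reads are not independent of them. These and the other comparison columns are not reported. Of 1000 shifted means 0 gave a solution. Per-library values printed here are these recovered reads and not values supplied by the authors.

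Reads divided by size factors were tested as log2 of the value plus 1 with limma 3.58.1 (trend) in R 4.3.3, for genes whose mean was 10 or more, with calls at an adjusted p under 0.05 and, for the second rule, a log2 fold change over 1 in size. The test was first tried on simulated data. Depth sets the counting error, and the reads carry no molecular identifiers. The standard errors come from the spread between libraries of a group, which was larger than counting error. For each gene limma draws this spread toward a trend with level over all genes. A gene's own spread can thus be smaller or larger than its standard error implies. With 3 libraries a group, the smallest p of an exact permutation test is 0.1. Positions, merged exon lengths and overlaps are from GENCODE release 44, and promoters from RefSeq (GRCh38.p14), which matched 30 of the 45 genes. Reads per kilobase divide by merged exon lengths, so levels, shares and ratios between genes depend on that choice. Alternatives were other scalings (total reads, TMM), pseudocounts of 0.5 and 5, no minimum mean or 50, edgeR 4.0.16, DESeq2 1.42.0, an adjusted p under 0.01, centring on the median and leaving out each library. All 45 genes are named, with values per library for the ILK complex, leukocyte integrins and immunoglobulin receptors and, in the other groups, for genes past the threshold or among the 3 largest changes either way, and the 3 largest called changes either way among the other pathway genes, except for items that are not reported here. Genes and lists were chosen with earlier results of these data known.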

Additional observations from a re-analysis of the deposited data

How the results depend on the processing

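Over 16 alternatives, 34 of the 40 fitted genes stayed called or stayed not called wherever they were fitted, and no called gene changed direction. Of the genes not called, 5 changed sign in some alternative. ITGAV went to -0.0025 with TMM scaling and -0.0016 with edgeR, and TLN1 to 0.0027 with total reads as the scale. With 1 library left out, ITGAV ran from -0.0379 to 0.0257, TLN1 from -0.0575 to 0.0131, ITGA5 from -0.0052 to 0.0341, ITGAL from -0.0149 to 0.0390 and ITGB7 from -0.0103 to 0.193. The calls that changed were those of CD58, ITGAE, ITGB2 and PARVG, called at first and lost in 9, 8, 4 and 3 alternatives, and ILK and ESAM, not called at first and called in 3 and 1. The log2 fold change stayed between -1.96 and -1.91 for RSU1, between 1.54 and 1.81 for ICAM1, between 1.61 and 1.73 for PECAM1 and between 1.41 and 1.51 for ITGA9. The count of genes lower past the threshold went from 1 to 2 with no minimum mean, which adds VCAM1, because more genes were tested, and was 1 to 2 over the fits that leave out 1 library, the second gene being ITGB3. Those fits gave 15 to 16 higher genes and 6 to 9 lower ones at the adjusted p alone. Genes past the threshold over all genes fitted went from 276 higher and 462 lower to 471 and 644 with no minimum mean, and to 133 higher and 330 lower at a minimum of 50, and with a pseudocount of 5 to 192 and 375. No paired analysis was possible because the recovered libraries carry no replicate number. Depth limits what can be said of ITGAD, ITGB5, ITGB8 and VCAM1.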
